A study of Mus musculus with 36 samples.

Results

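STAT factors and SOCS feedback genes were examined in the pancreas of adult mice, through the histone marks at their promoters. The 9 genes were taken by name, namely the transcription factors *Stat2*, *Stat3*, *Stat4*, *Stat5a*, *Stat5b* and *Stat6* and the feedback inhibitors *Socs1*, *Socs2* and *Socs3*, of 22392 annotated genes. For each mouse, a gene was called marked when a peak of trimethylated histone H3 lysine 4 (K4me3) or lysine 27 (K27me3) overlapped the 3 kb on either side of any of its transcription start sites (TSS), and the width of the widest such peak was recorded. In ChIP-Seq, an antibody pulls down chromatin that carries the mark, and a peak is a stretch where more of its reads fall than in the input.

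The study compared 4 genotypes of 3 mice each. They are Wildtype (WT), Mist1creERT/+EZH2[delta]SET (EZ), and the groups coded KR and KE, which carry Mist1creERT and share a further allele. EZ and KE lack the catalytic SET domain of EZH2, the enzyme that writes K27me3, and WT and KR do not carry this deletion. All mice were 2 to 4 months old at tamoxifen gavage, and tissue was taken 22 days later. The recombinase is driven from the *Mist1* locus, which is active in acinar cells, and replaces 1 *Mist1* allele in EZ, KR and KE. The study's controls were C57BL/6 or creERT-only mice, and which of these the WT mice were is not given in the sources used here. Chromatin came from the whole pancreas, so cells in which Cre never acted can contribute to any peak, and a mark carried by fewer cells cannot be told apart from a weaker mark in each cell.

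In the JAK-STAT pathway, a cytokine or hormone receptor activates a Janus kinase, the kinase phosphorylates a STAT protein, and the STAT dimer enters the nucleus and switches on its targets. *Socs1*, *Socs2* and *Socs3* are among those targets, and their products bind the receptors or kinases and shut the signal down. In the pancreas, STAT3 is best known for its activation by the interleukin-6 family during inflammation and early neoplasia, and STAT5 for signals of growth hormone and prolactin. K4me3 marks the promoters of active and poised genes, and K27me3 marks genes silenced by Polycomb.

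The deposited lists hold 17400 to 26081 K4me3 peaks and 21420 to 31274 K27me3 peaks per mouse. They give positions only, so the depth is unknown and its part in any width or presence was not tested. K4me3 lay at all 8 acinar markers in all 12 mice. WT2 and KR1 stood apart from the other mice. Of 15 leukocyte markers, 8 had K4me3 in WT2 and 10 in KR1, against 1 to 3 in the other 10 mice, and the summed widths were 42186 and 33528 bp against 1625 to 5446 bp. Among these, *Ptprc*, the pan-leukocyte antigen CD45, had peaks of 11083 bp in WT2, 6379 bp in KR1, 3510 bp in KE1 and 501 bp in EZ2 and none in the other 8 mice, whereas *Nkg7*, *Adgre1*, *Csf1r*, *Lyz2* and *Itgam* had none in any mouse. Of the autosomal K27me3 peaks, 11.7% overlapped K4me3 in WT2, 4.39% in KR1 and 0.693% to 2.57% in the others. Their summed acinar widths were also the lowest, 35793 bp in WT2 and 58164 bp in KR1 against 61500 to 94044 bp. Of 5 duct markers, 3 had K4me3 in WT2 (9039 bp summed) and all 5 in KR1 (16168 bp) and the others (16157 to 21057 bp). Of 6 islet markers, 1 had it in WT2 (4284 bp) and 2 in KR1 (6210 bp) and the others (6647 to 8176 bp). The 7 stroma and vessel markers summed to 6347 bp in WT2 and 6502 bp in KR1, 3 marked in each, against 1562 to 4658 bp and 2 to 4 marked. Of these, *Pecam1* measured 4264 bp in WT2, 4295 bp in KR1 and 501 bp in KE1, with no peak elsewhere. *Col1a1* and *Kdr* lay within the range of the other mice. *Dcn* and *Pdgfrb* had no peak in WT2 or KR1 but had one in 5 and 4 other mice, and *Col1a2* and *Cdh5* had none in any mouse.

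Promoter sequences were available for 8 of the 9 genes from RefSeq (GRCm38.p6, the same assembly as mm10), in 11 entries. 5 stretches upstream of a start are shown, those with a match to a STAT-type motif and the inner promoter of *Stat5b*, where K4me3 differed between mice. Capitals mark the letters TTCNNNGAA, the core of the element bound by most STAT dimers, or GAAA, any 2 bases and GAAA, the core of the interferon-stimulated element bound by the complex of STAT2 with IRF9, each searched on both strands of the 250 bases before the start.
Socs1, chr16:10785537-10785786, minus strand: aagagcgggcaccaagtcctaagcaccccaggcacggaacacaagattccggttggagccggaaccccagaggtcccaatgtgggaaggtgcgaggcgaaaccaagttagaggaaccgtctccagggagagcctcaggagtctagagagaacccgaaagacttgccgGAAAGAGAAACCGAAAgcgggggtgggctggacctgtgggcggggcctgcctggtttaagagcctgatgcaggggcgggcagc
Socs3, chr11:117969466-117969616, minus strand, from base -250 to base -100: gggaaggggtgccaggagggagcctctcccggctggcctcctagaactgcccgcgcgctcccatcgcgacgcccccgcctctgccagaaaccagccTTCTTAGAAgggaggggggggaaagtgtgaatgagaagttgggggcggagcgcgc
Stat2, chr10:128270248-128270497, plus strand: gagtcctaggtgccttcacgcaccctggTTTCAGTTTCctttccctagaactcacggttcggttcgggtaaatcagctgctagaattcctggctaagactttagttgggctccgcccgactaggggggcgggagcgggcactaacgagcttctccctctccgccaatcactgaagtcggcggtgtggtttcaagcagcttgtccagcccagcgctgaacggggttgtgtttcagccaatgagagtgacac
Stat4 inner start, chr1:52007990-52008239, plus strand: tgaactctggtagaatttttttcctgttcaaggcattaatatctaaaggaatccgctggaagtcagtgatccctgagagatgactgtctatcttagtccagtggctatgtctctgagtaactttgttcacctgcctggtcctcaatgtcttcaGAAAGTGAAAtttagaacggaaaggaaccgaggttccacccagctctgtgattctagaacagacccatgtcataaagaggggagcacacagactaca
Stat5b inner start, chr11:100822571-100822820, minus strand: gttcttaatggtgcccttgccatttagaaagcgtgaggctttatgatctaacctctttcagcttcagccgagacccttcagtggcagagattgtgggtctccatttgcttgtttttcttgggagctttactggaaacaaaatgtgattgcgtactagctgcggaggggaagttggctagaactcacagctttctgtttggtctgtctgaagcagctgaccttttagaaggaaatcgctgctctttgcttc
Counted from the start, with -1 as the base before it, *Socs1* holds 2 overlapping matches of the interferon-type motif from -83 to -68. *Stat2* holds 1 on the opposite strand, from -222 to -213, and the inner *Stat4* start holds 1 from -97 to -88. *Socs3* holds TTCTTAGAA from -154 to -146, the only match of TTCNNNGAA among the 11 entries. Of all 32851 promoters of this length, 7.02% hold TTCNNNGAA and 2.98% the interferon-type motif. A match is a description of the letters and not a measured binding site.

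K4me3 lay within 3 kb of a TSS in all 12 mice at 8 of the 9 genes, every gene but *Stat4*, where 56.0% of all genes had it in all 12. In each genotype, the same 8 genes had K4me3 in all 3 mice, against 57.0% (WT), 60.0% (EZ), 59.2% (KR) and 59.1% (KE) of all genes. No gene of the family had either mark in all 3 mice of one genotype and in none of another. Over all genes, K4me3 was gained in this way in EZ, KR and KE against WT at 0.0715%, 0.0938% and 0.0625% and lost at 0.0402%, 0.0357% and 0.0893%, and in KE against KR 0.0759% gained and 0.0759% lost it. K27me3 was gained against WT at 0.179%, 0.237% and 0.281% and lost at 0.00447%, 1.62% and 0.0179%, and in KE against KR 3.02% gained and 0.357% lost it. The X chromosome held 35, 10 and 12 K27me3 peaks in KR1, KR2 and KR3 and 17 in EZ2. In the other mice it held 5637 to 7367. The 9 genes lie on autosomes, and the part of the X chromosome in these shares was not tested. The number of the 9 genes with K4me3 averaged 8.67 in WT and 8.33 in each of EZ, KR and KE (p = 1 for each difference from WT in a two-sided exact permutation test, which cannot go below 0.1 with 3 mice against 3).

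Ordered by their median width over 12 mice, the peaks were widest at *Socs3* (6347 bp) and *Socs2* (4688 bp), then *Stat3* (3445 bp), *Stat6* (2974.5 bp), *Stat5b* (2742.5 bp), *Socs1* (2522.5 bp), *Stat2* (2292 bp) and *Stat5a* (2155.5 bp). Within each mouse's own marked genes, the median rank was the 96.6th percentile for *Socs3*, the 92.4th for *Socs2*, the 80.0th for *Stat3* and the 48.7th for *Stat5a*. The narrowest *Socs2* peak (4121 bp) exceeded the widest *Stat3* peak (3806 bp), and the narrowest *Stat3* peak (3238 bp) exceeded the widest *Stat6* peak (3180 bp). The ranges of all other neighbours in this order overlapped.

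**Figure D1:**
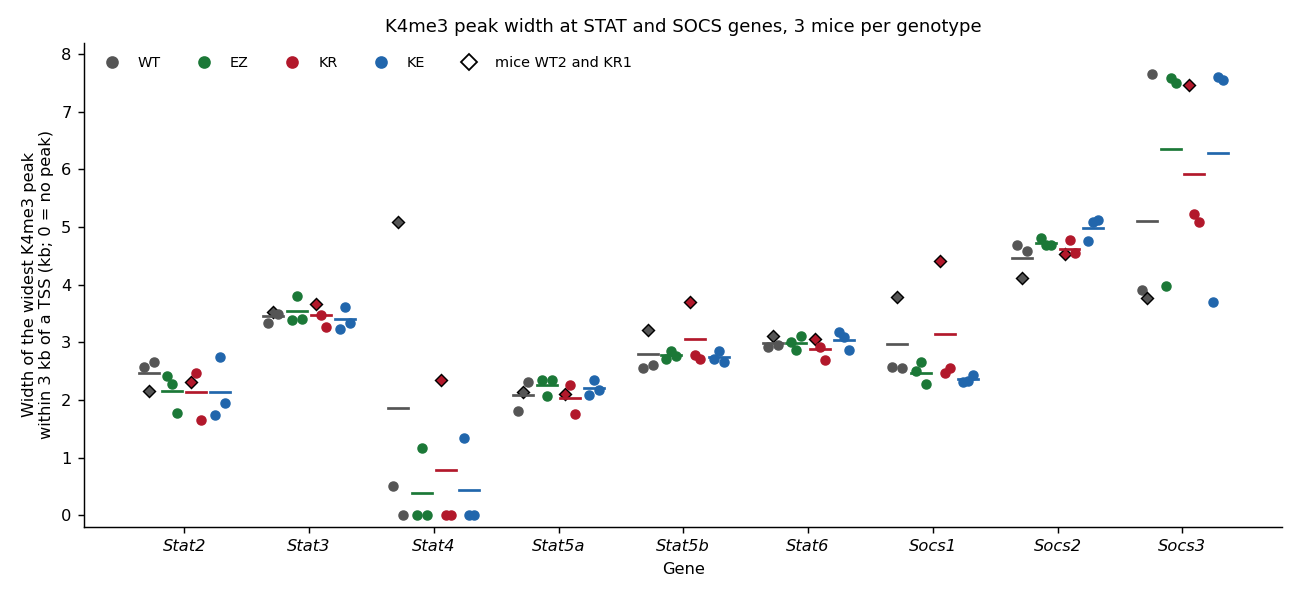
Width in kb of the widest K4me3 peak within 3 kb of a TSS (vertical axis, linear) at each of the 9 genes, with 1 point per mouse, coloured by genotype, and a horizontal bar at the mean of the 3 mice (mice without a peak enter as 0). Diamonds mark WT2 and KR1, which are the widest mice at *Stat4* and *Socs1*, and *Socs3* splits into narrow and wide peaks within genotypes.

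*Stat3*, which carries interleukin-6 signals, had one of the least variable peaks among the STAT genes, with an SD over 12 mice of 0.07 in log2 width both as deposited and after each library was centred on its median. Its widths were 3339, 3523 and 3490 bp in WT, 3389, 3806 and 3414 bp in EZ, 3665, 3476 and 3264 bp in KR and 3238, 3620 and 3337 bp in KE. All 4 genotypes overlapped. The peak covered the start of the gene on chromosome 11, within -1015 and 2795 bp of it, 65.9% of it in introns of the gene. A small further peak of 627 to 763 bp lay near an inner TSS of a retained-intron transcript, 41012 bp into the gene, in EZ1, EZ2 and KE3 only of the 12 mice. It covered that TSS in KE3 and began at 41181 bp in EZ1 and 41063 bp in EZ2.

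*Stat6*, the factor of interleukin-4 and interleukin-13, varied as little (SD 0.07 in log2 width as deposited and 0.09 centred), with 2914, 3118 and 2947 bp in WT, 3002, 2861 and 3102 bp in EZ, 3058, 2923 and 2687 bp in KR and 3180, 3095 and 2865 bp in KE. The genotypes overlapped. A second peak lay beyond the 3′ end of the gene, from at least 18456 bp after its start, in 11 of 12 mice, with 501 to 1266 bp, and was missing in KR3.

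*Stat2*, the partner of the type I interferon receptor, varied more, with an SD of 0.22 in centred log2 width. Its widths were 2575, 2148 and 2663 bp in WT, 2417, 2275 and 1769 bp in EZ, 2309, 2463 and 1656 bp in KR and 1748, 2739 and 1954 bp in KE. The narrowest peaks were in KR3, KE1 and EZ3 and the widest in KE2, so no genotype stood apart. The start of *Apof* lies at -1888 bp relative to that of *Stat2*, so both genes share this peak call although the peak does not reach the *Apof* start.

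*Stat5a* and *Stat5b*, close paralogs that both answer growth hormone and prolactin, lie head to head on chromosome 11 with starts 8627 bp apart and separate peaks. *Stat5a* had 1816, 2146 and 2307 bp in WT, 2348, 2064 and 2347 bp in EZ, 2102, 2258 and 1762 bp in KR and 2083, 2351 and 2165 bp in KE. Its peak began between positions -119 and 342 relative to the 5′ start, in bp, and ended 2046 to 2462 bp after it, so it covered the further starts 994 and 1133 bp into the gene in all 12 mice. At the 5′ end, the observed over expected CpG ratio was 0.21, the 24.3rd percentile of all genes, and at the start 1133 bp downstream it was 0.60.

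The peak at the main *Stat5b* promoter measured 2557, 2919 and 2603 bp in WT, 2716, 2852 and 2769 bp in EZ, 3706, 2789 and 2706 bp in KR and 2716, 2856 and 2668 bp in KE. KR1 and WT2 were the widest. A second K4me3 peak, at chr11:100820010-100823226 around the inner start shown above, 28196 bp into the gene, was present in 4 mice and absent in 8. It measured 3217 bp in WT2, 2347 bp in KR1, 1585 bp in KE1 and 921 bp in EZ2, 1 mouse of each genotype. These are the 4 mice with K4me3 at *Ptprc*, in the same order of width, a relation noticed after the values were seen. Of 33862 K4me3 regions merged over the 12 mice, 116 (0.343%) were present in these 4 mice alone. The inner start had an observed over expected CpG ratio of 0.43, against 0.86 at the main promoter. Whether leukocytes contribute this peak was not tested.

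*Stat4*, which carries interleukin-12 signals in T and natural killer cells, was the gene without K4me3 in most mice. Its 5′ start had no peak in any mouse. All its peaks lay in chr1:52008265-52013355, 88.4% intron and 11.6% exon, downstream of the inner start 21095 bp into the gene. They measured 501 bp in WT1, 5091 bp in WT2, 1165 bp in EZ2, 2354 and 1871 bp as 2 peaks in KR1 and 1336 bp in KE1, with none in WT3, EZ1, EZ3, KR2, KR3, KE2 and KE3. The widest were in WT2 and KR1. K4me3 in exactly 5 mice occurred at 0.505% of genes, and *Stat4* was the only gene with it in these 5 (0.00447%). Of these, 4 are the mice with K4me3 at *Ptprc* and with the inner *Stat5b* peak, and WT1, with the smallest *Stat4* peak, had 1 of 15 leukocyte markers (*Cd68*, present in all 12 mice). The part of leukocytes in the *Stat4* peaks was not tested. Both *Stat4* starts are poor in CpG, with observed over expected ratios of 0.23 and 0.20, where the median was 0.73 for genes with K4me3 in all 12 mice and 0.19 for genes with none.

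**Figure D2:**
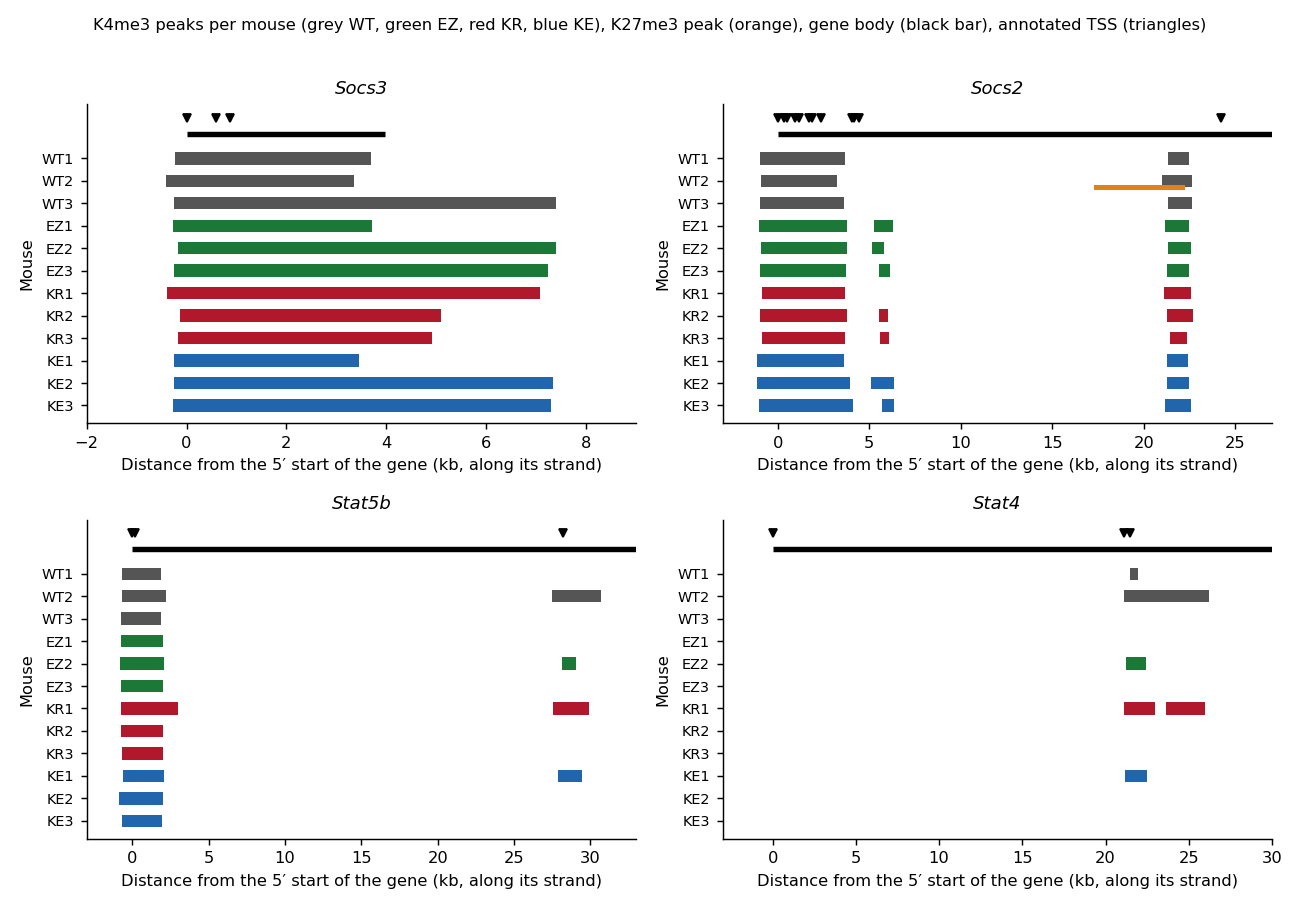
K4me3 peaks (bars) of each mouse at *Socs3*, *Socs2*, *Stat5b* and *Stat4*, by distance in kb from the 5′ start along the strand, with the gene body as a black line, annotated TSS as triangles and the 1 K27me3 peak in orange. The inner *Stat5b* peak appears in WT2, EZ2, KR1 and KE1, *Stat4* peaks lie at the inner start in 5 mice, and the 3′ edge of the *Socs3* peak falls at different distances in mice of the same genotype.

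*Socs3*, the inhibitor of interleukin-6 receptor signalling, had the widest and the most variable peak of the 8 genes marked in all mice, with an SD of 0.43 in centred log2 width, the 93.6th percentile of all genes tested. It measured 3908, 3769 and 7648 bp in WT, 3986, 7582 and 7503 bp in EZ, 7470, 5224 and 5089 bp in KR and 3704, 7599 and 7560 bp in KE. The upstream edge lay between -408 and -136 bp of the 5′ start in all 12 mice, so the difference was at the other edge. That edge lay 3360 to 3716 bp after the start in WT1, WT2, EZ1 and KE1, at 4919 and 5087 bp in KR3 and KR2 and at 7073 to 7404 bp in WT3, EZ2, EZ3, KR1, KE2 and KE3. The gene is 3969 bp long, so the wide peaks ran past its 3′ end. Narrow and wide peaks occurred in WT, EZ and KE alike, and only the 3 KR mice had no narrow one. When only bases inside the 3 kb windows were counted, the difference between EZ and WT was -0.015 in log2 and that between KE and WT -0.0093. By this measure KR stayed above WT. In whole peak width, with WT2 and KR1 left out, the difference between KR and WT was -0.025.

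*Socs1*, which blocks interferon and interleukin-4 signalling, had its widest peaks in KR1 and WT2. It measured 2573, 3795 and 2554 bp in WT, 2498, 2651 and 2272 bp in EZ, 4413, 2462 and 2547 bp in KR and 2316, 2336 and 2426 bp in KE. The 3 KE mice lay below every WT and every KR mouse after each library was centred on its median. Groups that do not overlap in this direction occurred at 4.52% of genes for KE against WT and at 4.63% for KE against KR. Relative to WT, the log2 difference was -0.33 (SE 0.23, exact permutation test, p = 0.1), and relative to KR it was -0.38 (SE 0.23, exact permutation test, p = 0.1), where 0.1 is the smallest p possible. Without WT2 and KR1, the differences were -0.09 and -0.12.

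*Socs2*, which restrains growth hormone receptor signalling, had a peak of nearly constant width, with an SD of 0.06 in log2 width after centring and 0.08 as deposited. It measured 4681, 4121 and 4590 bp in WT, 4804, 4689 and 4687 bp in EZ, 4538, 4773 and 4558 bp in KR and 4752, 5095 and 5117 bp in KE. The peak also covered the start of the divergent noncoding transcript *5730420D15Rik*, at -195 bp. After centring, every KE mouse exceeded every WT mouse and every KR mouse. Groups separated in this direction at 6.62% of genes for KE against WT and at 5.68% for KE against KR. The log2 difference between KE and WT was 0.14 (SE 0.05, 95% confidence interval 0.03 to 0.25), or 1.10-fold, with an adjusted p of 0.683 (limma, Benjamini-Hochberg over 12535 genes), and without WT2 and KR1 it was 0.13.

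A second *Socs2* peak in the gene body, at chr10:95410836-95412069 and 5111 to 6344 bp after the start, was present in 7 mice. It measured 1044, 673 and 630 bp in EZ1, EZ2 and EZ3, 501 bp in each of KR2 and KR3, 1234 bp in KE2 and 668 bp in KE3. No WT mouse had it, nor KR1 or KE1. Presence in 3 of 3 EZ and 0 of 3 WT mice was found at 1.07% of the 33862 merged regions. The 501-bp peaks are the smallest that the lists contain. Another peak, 20989 to 22669 bp after the start, was present in all 12 mice with 921 to 1626 bp, 100% of it in an intron.

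K4me3 width was tested at the 8 genes with a peak in all mice, in 1 limma fit over 12535 genes. No gene of the family passed an adjusted p of 0.05 in EZ, KR or KE against WT, in KE against KR, or in the interaction that asks whether the EZH2 deletion acts differently in the KR background. The lowest adjusted p was 0.683. The genes that passed numbered 7 for EZ against WT (0.0558%), 10 for KR against WT (0.0798%), 1 for KE against WT (0.00798%), 5 for KE against KR (0.0399%) and 3 for the interaction (0.0239%), so few genes of any kind were called. Without WT2, these counts were 29, 60, 25, 21 and 25, and with the replicate number as a block 0, 0, 0, 0 and 2, and no gene of the family was among them. The 3 mice of EZ and of WT overlapped at all 8 genes (of all genes tested, EZ lay wholly above WT at 6.57% and wholly below at 5.14%), and so did those of KR and WT (5.28% and 4.76%), while in KE against WT and in KE against KR *Socs2* lay wholly above and *Socs1* wholly below. Without adjustment, 757, 803, 815, 537 and 471 genes had p below 0.05, and *Socs2* in KE against WT was the only one of the family among them.

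Of the 40 differences tested in the family, 24 were smaller than 0.1 in log2, from -0.08 to 0.10. The others were at *Socs1*, *Socs2*, *Socs3*, *Stat2*, *Stat5b* and *Stat6*. For *Socs3*, the differences from WT were 0.29 in EZ, 0.27 in KR and 0.28 in KE with SE 0.35, and the 95% confidence interval of the first ran from -0.50 to 1.07. With 1 mouse left out, they ran from 0.12 to 0.60 in EZ, from 0.10 to 0.56 in KR and from 0.12 to 0.60 in KE, lowest in EZ without WT1, in KR without KR1 and in KE without KE3. For *Stat2*, they were -0.25, -0.22 and -0.24 with SE 0.17, and shrank to -0.12 without EZ3, -0.066 without KR3 and -0.14 without KE1. The largest *Stat2* values with 1 mouse left out were -0.33, -0.32 and -0.40. For *Stat5b*, KR differed from WT by 0.12 and KE from KR by -0.16 with SE 0.14. The widest peak enters the fit, which in WT2 alone of the 12 mice is the inner *Stat5b* peak (3217 bp) and not that of the main promoter (2919 bp). With the 5′ start as the only TSS, so that all 12 mice enter with the main promoter, the *Stat5b* differences were 0.17 and -0.17. Without WT2 and KR1, these *Stat5b* differences were 0.15 and -0.034, and with 1 mouse left out they ran from -0.0057 to 0.28 and from -0.23 to -0.033, the values nearest 0 without KR1. The intervals at *Stat3*, from -0.17 to 0.14 for EZ against WT and from -0.15 to 0.16 for KR against WT, were far narrower than at *Socs3*, which shows how much the precision differed within the family. In simulated data for EZ against WT, 59% of changes of 0.5 in log2 and 84% of changes of 1 were recovered. There were 5 false calls among the genes left unchanged. The changes were planted at random genes with noise drawn independently for each mouse, which leaves out any deviation that mice share. These rates are averages over genes and do not give the power at *Socs3* or at *Socs1* (SE 0.23).

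**Figure D3:**
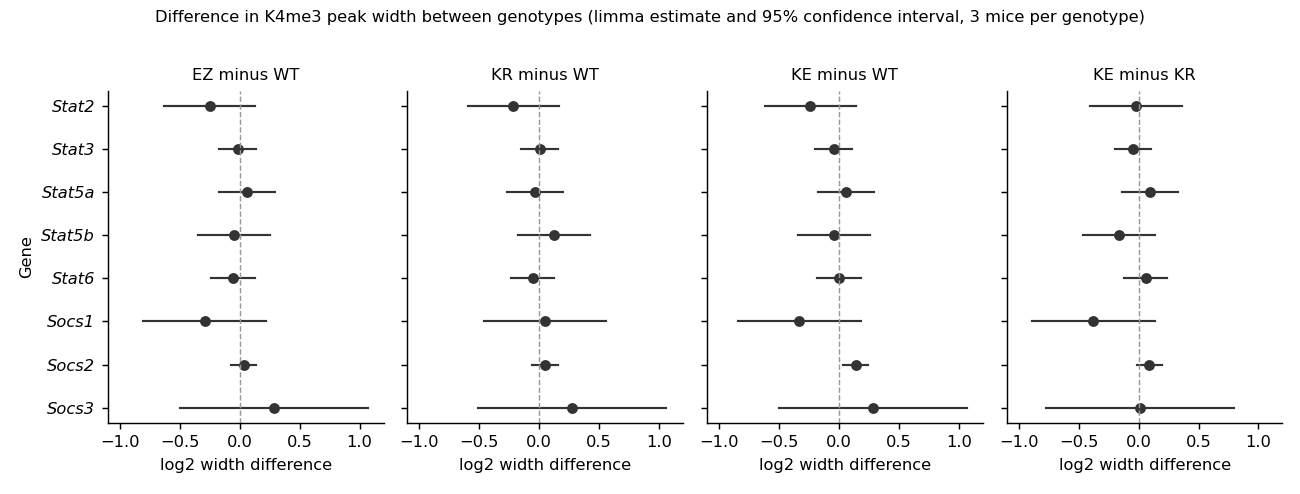
Difference in log2 K4me3 width between genotypes (horizontal axes) for the 8 genes tested, as the limma estimate (point) with its 95% confidence interval (line), 3 mice per genotype. Every interval but that of *Socs2* in KE against WT includes 0, and the intervals are widest at *Socs3* and *Socs1*.

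K27me3 was nearly absent from the family. No gene had a K27me3 peak within 3 kb of a TSS in any mouse, except *Socs2* in WT2, where 64.7% of all genes had none in any mouse and 8.03% had it in WT2 alone. The WT2 peak at *Socs2* (chr10:95394918-95399918) was 5001 bp wide, the smallest width in these lists. It began 17262 bp after the main start, within 3 kb of the inner start of a retained-intron transcript, and overlapped the K4me3 peak of that intron. Among genes with K4me3 in all 12 mice, 78.0% had no K27me3 in any mouse, so most such genes lacked it. All 3 mice of a genotype carried K27me3 at none of the 9 genes, against 5.74% of all genes in WT, 7.33% in EZ, 8.34% in KR and 9.87% in KE. *Stat4*, with little K4me3, had no K27me3 within 3 kb either, in any of the 12 mice.

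The window was also widened to 100 kb upstream and 3 kb downstream of a TSS. *Stat3* then had K27me3 in WT2 (11657 bp) and KR1 (5001 bp) and *Socs2* in WT2, and the other 7 genes had none in any mouse, where 33.4% of all genes and 40.8% of genes with K4me3 in all 12 mice had none. Distances were measured from the 5′ start of the gene alone, not from its inner starts. The median distance to the nearest K27me3 peak over the 12 mice ranged from 457 kb at *Socs2* to 932 kb at *Stat4*. The median over the 9 genes was 617 kb, against 141 kb for all genes and 197 kb for genes with K4me3 in all 12 mice, and each of the 9 genes exceeded both. *Stat3*, *Stat5a* and *Stat5b* form 1 locus and share the nearest peak, so they are not independent here.

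The shortest distance was in WT2 or KR1 at 8 of the 9 genes, and at *Stat4* it was in EZ2 (423 kb). In WT2, the nearest peak was 28.9 kb from *Stat3*, 17.3 kb from *Socs2* and 77.7 kb from *Stat6*, and in KR1 it was 51.1 kb from *Stat3* and 76.7 kb from *Stat6*. Without these mice, the shortest distances were 695 kb at *Stat3*, 109 kb at *Stat6* (in KR3) and 356 kb at *Socs2*. Across all genes, the median distance was also shortest in WT2 (45.2 kb) and KR1 (94.7 kb), against 120 to 228 kb in the other mice.

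**Figure D4:**
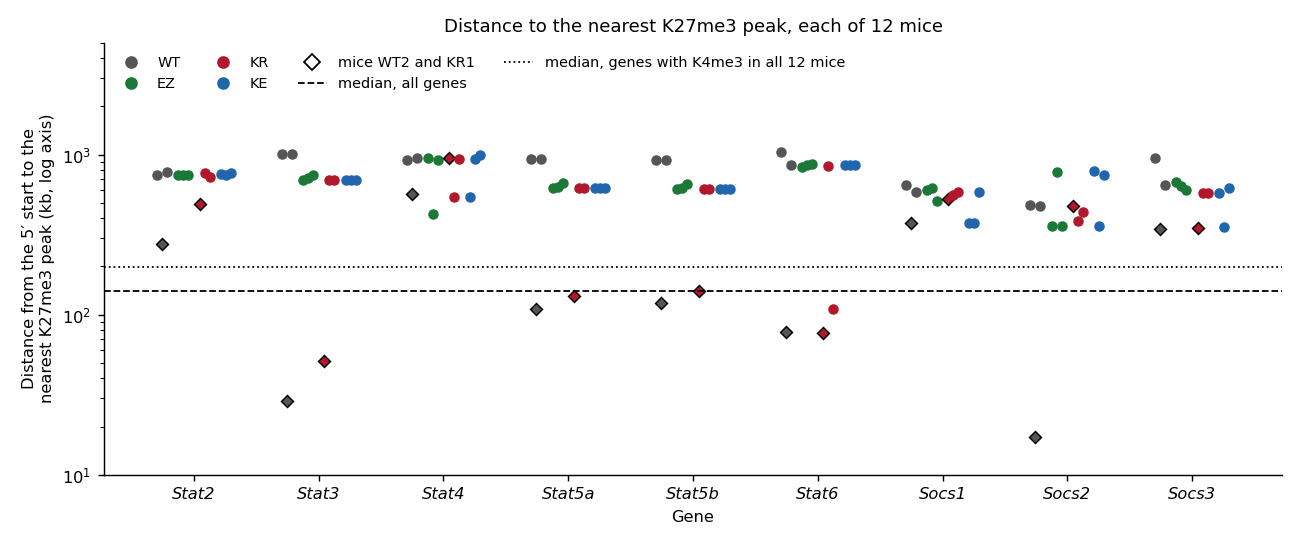
Distance in kb (log axis) from the 5′ start of the gene to the nearest K27me3 peak for each of the 9 genes, with 1 point per mouse, coloured by genotype, diamonds for WT2 and KR1 and lines at the median of all genes (141 kb) and of genes with K4me3 in all 12 mice (197 kb). Apart from *Stat6* in KR3, the points under the lines are from WT2 and KR1.

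The rest of the pathway was examined through 42 genes. K4me3 lay at 37 of them (88.1%) in all 12 mice, including all 4 Janus kinases, *Cish*, *Socs4*, *Socs5* and *Socs7*, all 7 PIAS genes and phosphatases and all 8 targets or partners, and at 14 of 19 receptors. The other 5 were receptors. Among them, *Csf3r*, the receptor for granulocyte colony-stimulating factor, had no K4me3 in any mouse. *Il2rg*, the common gamma chain, had it in WT2 (2402 bp) and KR1 (1334 bp) only of the 12 mice, *Il12rb2* in KR1 (692 bp) only, and *Il10ra* in WT2 (3011 bp), KR1 (2863 bp), KE1 (909 bp), EZ1 and EZ2 (501 bp each).

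K27me3 within 3 kb was absent at 33 of the 42 genes (78.6%) in all mice, close to the 78.0% of genes with K4me3 in all 12 mice and above the 64.7% of all genes, and 5 more (*Osmr*, *Lifr*, *Il11ra1*, *Ghr* and *Ccnd1*) had it in WT2 only of the 12 mice, as 8.03% of all genes did. *Il12rb2*, whose receptor signals through STAT4, had K27me3 in 11 of 12 mice, from 5001 to 27438 bp, and none in WT2. *Prlr*, the prolactin receptor upstream of STAT5, had it in 7 of 12 mice, 2 of WT, 1 of EZ, 2 of KR and 2 of KE, together with a narrow K4me3 peak of 631 to 1341 bp in all 12. *Il2rg*, on the X chromosome, had it in 6 mice, namely WT1, WT2, EZ1, EZ3, KE1 and KE2. The lists held 10 to 35 K27me3 peaks on this chromosome in KR1, KR2, KR3 and EZ2 and 5637 to 7367 in the other mice. The absence at *Il2rg* in KR cannot be told apart from this lack of peaks. None of the 37 pathway genes tested passed the limma test for width in any comparison, and the lowest adjusted p was 0.268.

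At 11 of these 37 genes, WT2 and KR1 had the widest peaks of all 12 mice after centring, and at *Socs1* and *Stat5b* of the family, where 10.1% of all genes tested did. The 11 were chosen for display after their values were seen. *Il4ra*, the receptor upstream of STAT6, measured 5976 bp in WT2 and 5839 bp in KR1 and 1424 to 2218 bp in the other 10 mice. *Ifngr1* measured 3568 and 4195 bp there, and *Irf9*, the partner of STAT2, 2614 and 2303 bp. The opposite, WT2 and KR1 both narrowest, held at *Cish*, *Il10rb* and *Jak2*, against 11.5% of all genes. WT2 and KR1 carried the leukocyte marker peaks given above, and their part in these widths was not tested.

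**Figure D5:**
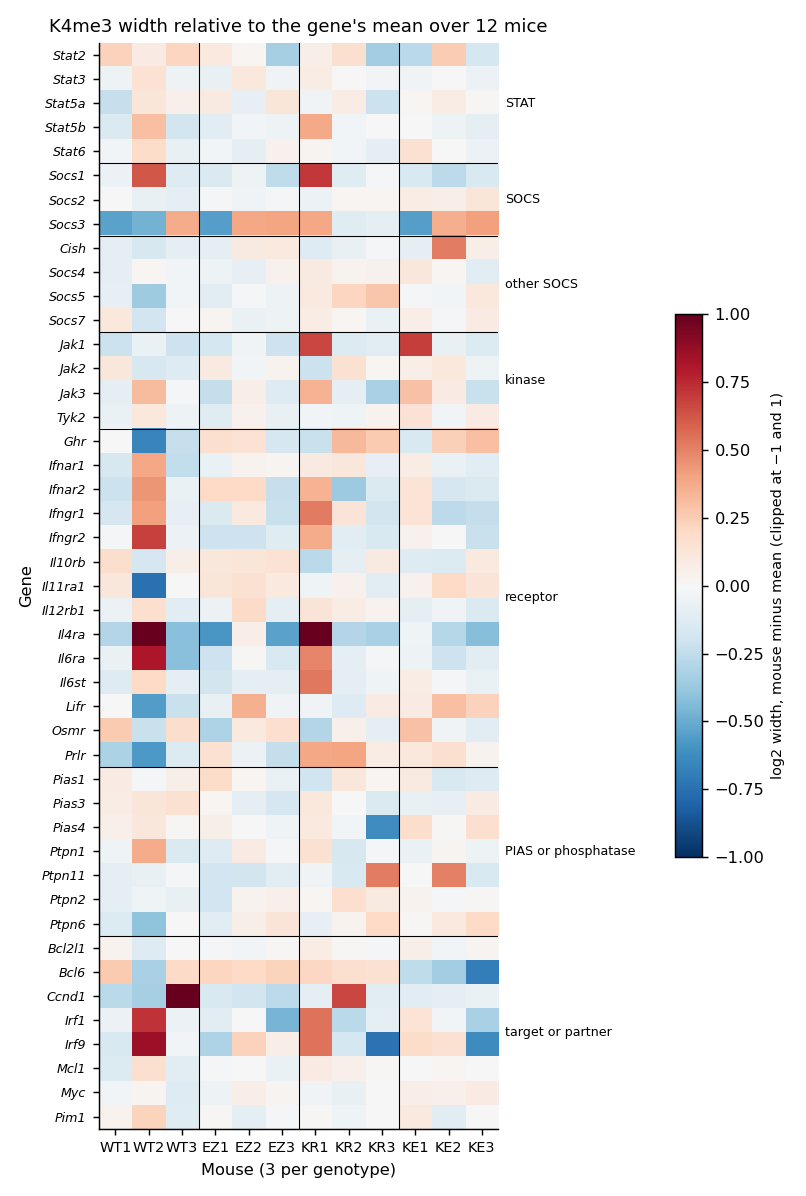
K4me3 log2 width of each mouse (columns) minus the gene's mean over 12 mice, each library centred on its median, for 8 STAT and SOCS genes and 37 other pathway genes (rows, by role), with colours clipped at -1 and 1. The WT2 and KR1 columns are red at *Socs1*, *Il4ra*, *Ifngr1*, *Irf1* and *Irf9*, and *Socs3* alternates between mice within genotypes.

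For the STAT and the SOCS gene that varied most, the genes with the most similar pattern of centred K4me3 width over the 12 mice were listed by Pearson r. For *Stat2* these were *Apof* (r = 1, the same peak), *Trerf1* (0.91), *Dennd6b* (0.91), *2810459M11Rik* (0.84) and *Zfp108* (0.82). For *Socs3* they were *2410004B18Rik* (0.91), *Zbtb39* (0.80), *Gprc5b* (0.80), *Xiap* (0.80) and *Kank2* (0.78). These are the highest of 12535 values computed over the same 12 libraries and are given as a description.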

How the data were processed

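Whole-pancreas chromatin from 12 mice was profiled by ChIP-Seq for K4me3 and K27me3. Per the labels and the study's methods, the authors used bowtie2 for alignment to mm10, and HOMER (findPeaks, histone mode, with that mouse's input) gave 1 peak list per mouse and mark. The deposited lists give start and end, and the deposited score column holds 1 for every peak and was not used. Input samples were not analysed here, and 1 allele and 1 pathway gene are not reported here. Tool versions are not given in the sources used here.

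TSS of every transcript came from GENCODE vM21 (22392 genes with an Entrez identifier), and mitochondrial peaks (0 to 6 per list) were dropped. Log2 width of the widest K4me3 peak within 3 kb, centred on each library's median, was tested with limma 3.58.1 (R 4.3.3) over 12535 genes with a peak in all 12 mice, with Benjamini-Hochberg adjustment and a threshold of 0.05. Exact two-sided permutation tests compared 3 mice with 3. Code was tested on simulated data. The genes and lists were chosen with earlier results of these data known. By rule, a pathway gene was to be named with values when it passed limma, had a mark in 3 of 3 mice of 1 genotype and 0 of 3 of another, or had K27me3 in 6 or more or K4me3 in 6 or fewer mice. Other pathway genes were named outside this rule. They stand as examples of K4me3 in all 12 mice, for K27me3 in WT2 only, for the widest or narrowest peaks in WT2 and KR1, or after their values were seen. Alternatives were no centring, covered bases, the 5′ start only, minimum widths, other windows and overlaps, equal numbers of peaks, presence in 2 of 3 mice, a replicate block and each mouse left out. Leaving out WT2 and KR1 was added after seeing the data. Python 3.11.15, numpy 2.4.6, pandas 2.3.3 and matplotlib 3.10.9 were used.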

Additional observations from a re-analysis of the deposited data

How the results depend on the processing

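Depth is unknown, so a gene without a peak is one in which none was called at this depth. No STAT or SOCS gene passed limma in any of 760 tests over all comparisons and alternatives (lowest adjusted p 0.459), and none of 37 pathway genes in 3490 tests (lowest 0.0658). Genes with K4me3 per genotype numbered 8 to 9 and those with K27me3 0 under every alternative that left out a mouse. Of 288 values of the 16 differences of at least 0.1, 280 kept their direction. The cause of the changes below was not tested, except that fewer mice or genes enter some of them. Covered bases leave out the part of a peak beyond the window, as at *Socs3* in WT3, where 4107 of 7648 bp count.

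Reversed were *Socs3* with covered bases, EZ against WT (-0.015) and KE against WT (-0.0093), *Socs3* without WT2 and KR1, KR against WT (-0.025) and interaction (0.023), the *Stat5b* interaction with covered bases (0.053), *Stat5b* KR against WT without KR replicate 1 (-0.0057, over mice left out -0.0057 to 0.28) and its interaction (0.017, -0.27 to 0.017), where the WT2 width is that of the inner *Stat5b* peak, and the *Socs3* interaction without KE replicate 1 (0.042, -0.58 to 0.042). Genes called over all genes tested, in the order EZ, KR and KE against WT, KE against KR and interaction, numbered 7, 10, 1, 5 and 3. With covered bases they were 4, 2 and 1 for EZ, KE and the interaction, without centring 6, 3 and 3 for KR, KE and KE against KR, and with peaks of at least 1 kb 3 for KE. Without WT2 and KR1, chosen after seeing the data, they were 26, 56, 26, 28 and 27. With each mouse left out they ranged from 0 to 29, 1 to 60, 0 to 25, 1 to 21 and 2 to 25, the highest of each without WT2. With the replicate block they were 0, 0, 0, 0 and 2, and 718, 747, 755 and 502 genes had an unadjusted limma p below 0.05 in the first 4. Replicate numbers were not taken as a pairing: the 18 same-numbered pairs correlated by -0.53 to 0.37 and 1 of 12 mice correlated best with its own number. The block changed no other call. The exact permutation test of 3 mice against 3 cannot pass 0.05 and gives no count.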

Other observations

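*Bcl6*, a transcriptional repressor whose gene is a known target of STAT factors, was chosen here after its values were seen. Its K4me3 peak measured 11861, 7280 and 11793 bp in WT, 11849, 11630 and 11658 bp in EZ, 11531, 11073 and 10505 bp in KR and 7936, 8092 and 6156 bp in KE. The KE mice lay below every KR mouse, as at 4.63% of all genes tested, and below WT1 and WT3, while WT2 was as narrow as they were. The log2 difference between KE and KR was -0.61 (SE 0.15, adjusted p 0.509 by limma over all genes), and over the alternatives the adjusted p ran from 0.0658, without WT replicate 2, to 1.0. The difference was -0.04 when only bases inside the 3 kb windows were counted.

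*Prlr*, also named for its K27me3, had K4me3 widths of 817, 631 and 964 bp in WT, 1167, 1002 and 873 bp in EZ, 1341, 1341 and 1025 bp in KR and 1048, 1188 and 1045 bp in KE. KR lay wholly above WT, as at 5.28% of all genes tested, by 0.63 in log2 (SE 0.13, adjusted p 0.268 by limma over all genes), which fails the correction, and the value ranged from 0.46 to 0.73 over the alternatives. KE also lay wholly above WT, as at 6.62% of all genes tested, by 0.44 in log2 (adjusted p 0.614 by limma).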
